A study of Mus musculus with 4 samples.

Results

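Nfe2l2, which encodes the transcription factor Nrf2, its inhibitor Keap1 and 8 genes of the antioxidant response that Nrf2 is known to activate (Nqo1, Hmox1, Gclc, Gclm, Txnrd1, Srxn1, Prdx1 and Cat) were examined in Gfi1b WT and Gfi1b KO hematopoietic stem cells (HSCs) of the mouse. The 10 genes were chosen by symbol, each symbol was matched to 1 Ensembl identifier through GENCODE M21 (GRCm38, the build of all positions given here), and all 10 were found among the 42367 genes of the count tables. All 10 also passed the minimum of 10 counts in at least 1 library of each pair.

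RNA of sorted cells was sequenced as 4 libraries, 1 for each genotype in each of 2 populations, so no difference within a population had a replicate check. The first population, called HSCs here, was sorted as Lin-, cKit+, Sca1+, CD48- and CD150+, and the other as CD41low/CD9low HSCs. According to the methods, KO mice carried Gfi1b alleles with floxed exons 2 to 4 on both chromosomes, WT mice carried 1 floxed and 1 wild-type allele, both carried Rosa-Cre, a tamoxifen-dependent Cre recombinase made in all tissues, and all were given tamoxifen 2 weeks before. Cells of 10 WT or 5 KO mice were pooled before sorting, and the labels give the strain as C57Bl6. The deposited design text instead contrasts floxed mice with and without ROSA-Cre, and the sample titles write Gfi1 where the genotype field writes Gfi1b. The Cre is not restricted to blood cells.

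The depth was 50781007 counts on genes in WT HSCs, 41690708 in KO HSCs, 12732079 in WT CD41low/CD9low HSCs and 19123185 in KO CD41low/CD9low HSCs. Ratios of KO to WT are ratios of counts divided by size factors, with exact (Clopper-Pearson) 95% intervals that cover counting error only and not the variation between mice or sorts. Gfi1b had 9256 and 49910 counts in WT and KO HSCs, against 611 and 9741 in the CD41low/CD9low pair, a KO/WT ratio of 6.66 (6.51 to 6.81) and 10.6 (9.78 to 11.5). A count over the whole gene does not separate the floxed exons from the rest, so it cannot check the deletion. All 8 HSC marker genes were detected in every library. Their summed level was 1930 CPM (counts scaled to a common library total) in both libraries of HSCs. It was 2220 and 2460 CPM in the WT and KO libraries of CD41low/CD9low cells. Kit alone held 989 and 1030 CPM in WT and KO HSCs, and single genes moved in both directions. In HSCs 5 of the 8 had a KO/WT ratio above 1 and 3 below, from 0.67 for Hlf to 2.2 for Procr. In CD41low/CD9low HSCs 6 were above 1 and 2 below, from 0.749 for Hlf to 1.98 for Slamf1, which encodes CD150. Itga2b, which encodes CD41, was lower in CD41low/CD9low HSCs, with a log2 difference of -1.94 (adjusted p = 1.03e-07 in edgeR). In HSCs the KO/WT ratio moved with transcript length over all genes, with a median of 0.89 in the shortest 25% and 1.12 in the longest 25% of exon lengths, whereas the medians were 0.995 and 1.01 in CD41low/CD9low HSCs. Ratios of the 10 genes in HSCs are therefore also given relative to the median ratio of genes of similar exon length where this moved them beyond their counting interval. In sorted bulk RNA, fewer cells of a type and less RNA per cell cannot be told apart.

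Nrf2 is a transcription factor of the cap'n'collar family that is made continuously and destroyed continuously. Keap1 binds it in the cytoplasm and delivers it to a Cul3 ubiquitin ligase, and oxidants or electrophiles that modify cysteines of Keap1 interrupt this, so that Nrf2 reaches the nucleus. There it pairs with a small Maf protein on antioxidant response elements and raises the transcription of enzymes that make glutathione, reduce thioredoxin and peroxiredoxins, and detoxify quinones and heme. The activity of Nrf2 is thus set largely at the protein level, which RNA counts do not measure. In HSCs the pathway is known for a part in quiescence and in the handling of reactive oxygen species.

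The core letters of the antioxidant response element, TGACNNNGC, were searched on both strands from 250 bases before to 50 bases after the RefSeq starts of genes (GRCm38.p6). This stretch was in the promoter table for 8 of the 10 genes, and 5 of these 8 held a match, beside 3781 of 27025 genes (14.0%) in the whole table and 4071 of 32851 promoters (12.4%). The matches are printed because these core letters are a form of element through which Nrf2 is known to act. Whether Nrf2 acts through the 5 printed matches was not tested, and sites that depart from these letters were not searched. Each line gives 29 bases read on the strand of the match, with the match in capitals.
Nfe2l2: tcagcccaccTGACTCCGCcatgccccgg
Gclm: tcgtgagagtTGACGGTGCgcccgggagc
Txnrd1: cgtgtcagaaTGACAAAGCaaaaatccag
Srxn1: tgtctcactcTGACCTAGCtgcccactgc
Prdx1: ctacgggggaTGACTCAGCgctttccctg

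The printed stretches lie at chr2:75704885-75704913 for Nfe2l2, chr3:122245413-122245441 for Gclm, chr10:82859104-82859132 for Txnrd1, chr2:152105542-152105570 for Srxn1 and chr4:116685456-116685484 for Prdx1, all on the minus strand. The match lay 240 bases before the start of Nfe2l2, 134 bases before that of Gclm, 92 bases before 1 of the 3 starts of Txnrd1, 133 bases before that of Prdx1 and 28 bases after that of Srxn1. The AP-1 letters TGACTCA lay inside the match of Prdx1 and of none of the other 4. No match was found for Keap1, Nqo1 and Cat, which says only that these letters were not in this window. Hmox1 and Gclc are named here without a sequence. A match is a run of letters and not a measured binding site.

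Among the 10 genes, Prdx1 and Cat were the most abundant transcripts per length in all 4 libraries, and Hmox1 was the least abundant in all 4. On the TPM scale, which divides counts by exon length and scales each library to a common total, WT HSCs held 221 TPM of Prdx1, 164 of Cat, 95.2 of Txnrd1, 82.0 of Keap1, 67.7 of Gclc, 67.1 of Nfe2l2, 57.9 of Gclm, 34.7 of Srxn1, 29.1 of Nqo1 and 5.61 of Hmox1. Gclc and Nfe2l2 were the only neighbours in this order whose counting intervals overlapped. In WT CD41low/CD9low HSCs the intervals of Txnrd1 and Gclc overlapped, and so did those of Nqo1 and Hmox1, the 2 least abundant of the genes. In KO CD41low/CD9low HSCs those of Nfe2l2 and Gclc overlapped. Nfe2l2 stood in place 6 in WT HSCs, 3 in KO HSCs, 6 in WT CD41low/CD9low HSCs and 5 in KO CD41low/CD9low HSCs.

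**Figure D1:**
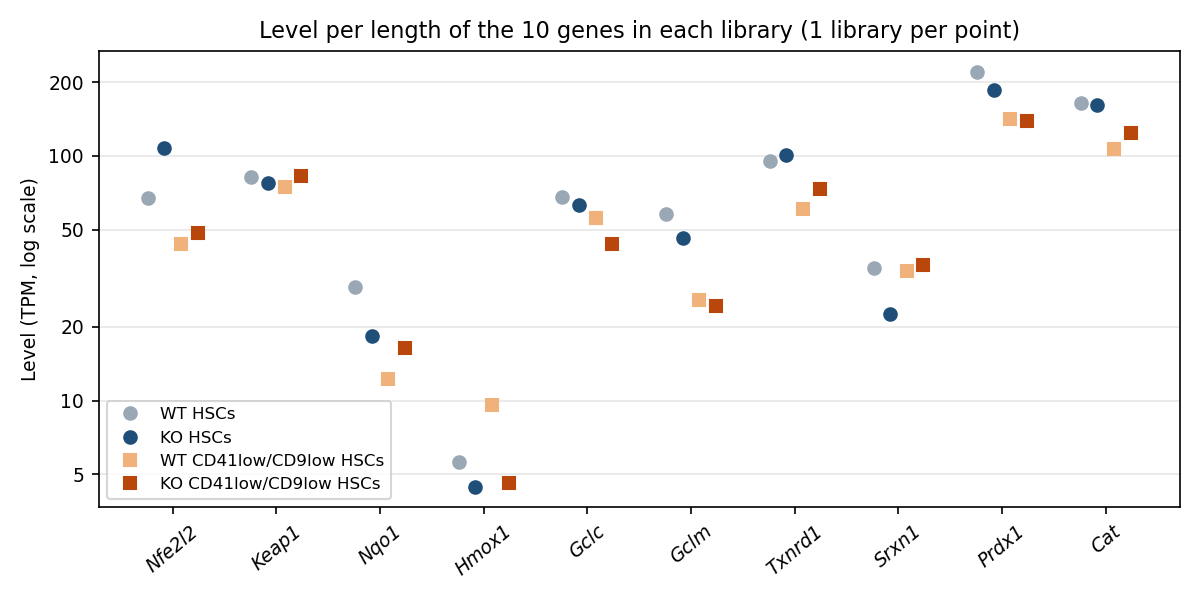
Level of the 10 genes in each of the 4 libraries, in TPM on a log axis, 1 point per library. Prdx1 and Cat lie highest and Hmox1 lowest in all 4 libraries, and Nfe2l2 is highest in KO HSCs at 108 TPM.

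Nfe2l2 (ENSMUSG00000015839, chr2:75675513-75704641, minus strand) had a higher level in KO than in WT HSCs and nearly equal levels in the CD41low/CD9low libraries. Its counts were 3887 in WT HSCs, 5008 in KO HSCs, 812 in WT CD41low/CD9low HSCs and 1322 in KO CD41low/CD9low HSCs, or 76.5, 120.0, 63.8 and 69.1 CPM in the same order. KO HSCs thus held the highest level of the 4 libraries. The KO/WT ratio was 1.59 (1.53 to 1.66) in HSCs, where genes of similar exon length had a median of 0.974, and 1.08 (0.993 to 1.18) in CD41low/CD9low HSCs. The log2 KO/WT ratio in CD41low/CD9low HSCs was below that in HSCs by a difference of -0.55 (-0.69 to -0.41).

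Keap1 (ENSMUSG00000003308, chr9:21229730-21239361, minus strand), the adaptor that binds Nrf2 for degradation, had KO/WT ratios close to 1 and on opposite sides of it in the populations. It had 5870 and 4438 counts in WT and KO HSCs, against 1730 and 2782 counts in the WT and KO CD41low/CD9low libraries, or 116, 106, 136 and 145 CPM. This gave a KO/WT ratio of 0.934 (0.898 to 0.971) in HSCs, compared with 1.07 (1.01 to 1.14) in CD41low/CD9low HSCs. The exons of Keap1 overlap 510 bases of the antisense gene Gm16754, which had at most 9 counts in a library.

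Nqo1 (ENSMUSG00000003849, chr8:107388225-107403206, minus strand) encodes a quinone reductase that is a standard readout of Nrf2 activity. Its counts were 689 in WT HSCs, 345 in KO HSCs, 94 in WT CD41low/CD9low HSCs and 183 in KO CD41low/CD9low HSCs, or 13.6, 8.28, 7.38 and 9.57 CPM. WT HSCs were highest and WT CD41low/CD9low HSCs lowest, and the KO library was below WT in HSCs and above it in the other population. For Nqo1 the KO/WT ratio was 0.619 (0.542 to 0.705) in HSCs, the lowest of the 10 genes, and 1.3 (1.01 to 1.68) in CD41low/CD9low HSCs, the highest of the 10. Genes as short as Nqo1, whose exon length is 1553 bases, had a median ratio of 0.87 in HSCs, and the ratio divided by this median was 0.711.

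Hmox1 (ENSMUSG00000005413, chr8:75093621-75100589, plus strand) encodes heme oxygenase 1, which opens the heme ring and releases iron, and is also strongly expressed in macrophages that take up red cells. It had 150 and 95 counts in WT and KO HSCs, against 83 and 58 counts in the WT and KO CD41low/CD9low libraries, or 2.95, 2.28, 6.52 and 3.03 CPM. WT CD41low/CD9low HSCs held the highest level. Hmox1 had a KO/WT ratio of 0.782 (0.599 to 1.02) in HSCs, an interval that includes 1, and 0.465 (0.327 to 0.659) in CD41low/CD9low HSCs.

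Markers of myeloid cells moved with Hmox1 in CD41low/CD9low HSCs. Of 8 macrophage and monocyte genes, 7 were below a KO/WT ratio of 0.6 there, over a range from 0.0684 for Ly6c2 to 0.755 for Lyz2, and their summed level was 429 CPM in WT and 293 CPM in KO. None of these 8 genes was at 0 in any library. All 8 granulocyte genes were below 0.6, and their summed level was 1010 CPM in WT and 259 CPM in KO. In HSCs the summed levels in WT and KO were 266 and 222 CPM for the macrophage genes and 433 and 517 CPM for the granulocyte genes. Of 8 erythroid genes, whose summed level was 60.6 CPM in WT and 17.7 CPM in KO CD41low/CD9low HSCs, Car1 and Ermap were at 0 in the KO library. The sort was set to leave out such cells, by lineage depletion, a lineage cocktail with Gr1 and CD11b, and gates on cKit and Sca1. The part of these markers' cells in the level of Hmox1 was not tested.

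Gclc (ENSMUSG00000032350, chr9:77754535-77794485, plus strand) and Gclm (ENSMUSG00000028124, chr3:122245557-122270732, plus strand) encode the catalytic and the modifier subunit of glutamate-cysteine ligase, which carries out the rate-limiting step of glutathione synthesis. Gclc had 3893 and 2893 counts in WT and KO HSCs, against 1032 and 1185 counts in the WT and KO CD41low/CD9low libraries, or 76.7, 69.4, 81.1 and 62.0 CPM. Gclm had 5560, 3530, 794 and 1103 counts in the same order, or 109, 84.7, 62.4 and 57.7 CPM. Both subunits were lower in the KO library of both populations, although the interval of Gclm in CD41low/CD9low HSCs includes 1. The KO/WT ratio of Gclc was 0.918 (0.875 to 0.964) in HSCs, compared with 0.765 (0.703 to 0.832) in CD41low/CD9low HSCs. The KO/WT ratio of Gclm was 0.784 (0.752 to 0.818) in HSCs, compared with 0.925 (0.844 to 1.01) in CD41low/CD9low HSCs. Gclm is long, with an exon length of 6291 bases, and genes of similar length had a median of 1.06 in HSCs, so that the ratio divided by this median was 0.738. The exons of Gclm overlap those of Gm17494 and Gm6061, which had at most 0 and 10 counts in a library.

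Txnrd1 (ENSMUSG00000020250, chr10:82833951-82897712, plus strand), the cytosolic thioredoxin reductase, had 10299 and 8745 counts in WT and KO HSCs, against 2118 and 3727 counts in the WT and KO CD41low/CD9low libraries, or 203, 210, 166 and 195 CPM. The ratio of KO to WT was 1.05 (1.02 to 1.08) in HSCs but 0.974 after division by the median of genes of similar exon length, so its direction in HSCs depended on that correction. In CD41low/CD9low HSCs the ratio was 1.17 (1.11 to 1.24).

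Srxn1 (ENSMUSG00000032802, chr2:152105516-152111376, plus strand) encodes sulfiredoxin, which repairs over-oxidized peroxiredoxins. It had 1494 and 771 counts in WT and KO HSCs, against 470 and 729 counts in the WT and KO CD41low/CD9low libraries, or 29.4, 18.5, 36.9 and 38.1 CPM. KO HSCs were lowest and the CD41low/CD9low libraries highest and nearly equal. Srxn1 had a KO/WT ratio of 0.638 (0.584 to 0.696) in HSCs, beside a median of 0.911 for genes of similar length, and 1.03 (0.918 to 1.16) in CD41low/CD9low HSCs.

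Prdx1 (ENSMUSG00000028691, chr4:116685544-116700822, plus strand) encodes a peroxiredoxin that reduces hydrogen peroxide at the expense of thioredoxin. It had 10258 and 6875 counts in WT and KO HSCs, against 2128 and 3032 counts in the WT and KO CD41low/CD9low libraries, or 202, 165, 167 and 159 CPM. WT HSCs stood above the other 3 libraries. Prdx1 had a KO/WT ratio of 0.828 (0.803 to 0.854) in HSCs, compared with 0.949 (0.897 to 1.0) in CD41low/CD9low HSCs. The ratio in HSCs was 0.87 after the exon length correction. The annotation holds 2 other genes with a near-identical stretch of 597 bases of Prdx1, Gm21399 with at most 13 counts and Gm7204 with at most 145 counts in a library. How reads were divided among the 3 genes was settled in the authors' counting, so the counts of Prdx1 are uncertain to a degree that was not measured.

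Cat (ENSMUSG00000027187, chr2:103453849-103485160, minus strand), the catalase of peroxisomes, had 6548 and 5156 counts in WT and KO HSCs, against 1378 and 2322 counts in the WT and KO CD41low/CD9low libraries, or 129, 124, 108 and 121 CPM. Its 4 levels lay close together. Its KO/WT ratio was 0.973 (0.938 to 1.01) in HSCs and 1.05 after the exon length correction, and 1.12 (1.05 to 1.2) in CD41low/CD9low HSCs.

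**Figure D2:**
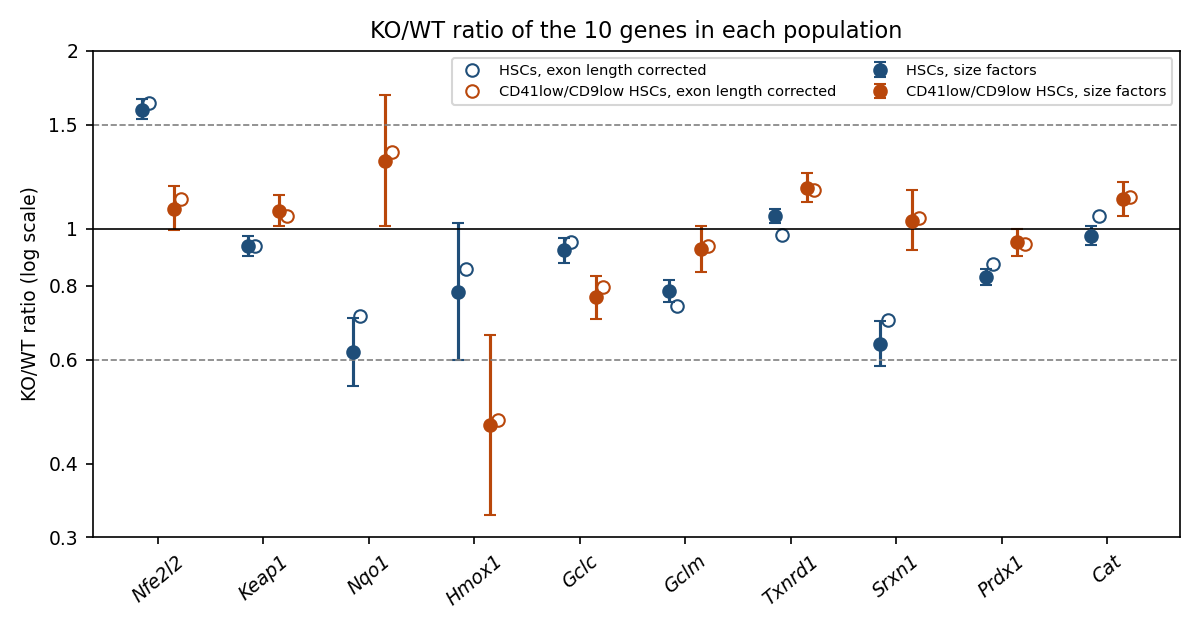
KO/WT ratio of the 10 genes, in HSCs and next to them CD41low/CD9low HSCs on a log axis, with filled points and 95% counting intervals for ratios of size-factor-normalized counts and hollow points for ratios corrected for exon length. Dashed lines mark 1.5 and 0.6, which only Nfe2l2 in HSCs and Hmox1 in CD41low/CD9low HSCs passed among these genes.

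The cutoffs that the study used, a KO/WT ratio above 1.5 or below 0.6, were passed by few of the genes. In HSCs 1 of the 10 genes was above 1.5, Nfe2l2, and 0 were below 0.6, beside 14.2% and 10.3% of the 15910 genes that passed the filter. In CD41low/CD9low HSCs 0 of the 10 were above 1.5 and 1 was below 0.6, Hmox1, beside 13.4% and 12.1% of 14844 genes. With a lower cutoff of 1/1.5, Nqo1 and Srxn1 in HSCs also passed, beside 12.7% of all genes, but their ratios after the exon length correction, 0.711 and 0.7, did not. With the study's cutoffs these shares are near or below the background. The share below 1/1.5 in HSCs lay above it before the exon length correction.

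As a group, the 8 target genes had mostly lower levels in KO than in WT HSCs and lay on both sides of 1 in the other population. In HSCs 7 of the 8 had a ratio below 1, with a median of 0.806, beside 49.8% of all genes and a median of 1.0 over all genes. After the exon length correction 7 of the 8 were again below 1, with a median of 0.862, although Txnrd1 and Cat had changed sides. In CD41low/CD9low HSCs 4 of the 8 were below 1, with a median of 0.991, beside 49.4% of all genes. Nfe2l2 itself was higher in KO HSCs, opposite to 7 of the 8 targets there. The KO library of HSCs also had more reads outside genes, 105.3 per 100 gene counts against 80.0 in WT. The summed level of 8 megakaryocyte markers was higher in it, 1610 against 979 CPM, and 3 of them were above 1.5 and none was at 0. Most of this rise lay in the integrin genes Itgb3, from 202 to 663 CPM, and Itga2b, from 547 to 691 CPM. The paper cites earlier work in which both were raised in Gfi1b-deficient HSCs. Of the 8 markers 6 had a ratio above 1 in HSCs, and Pf4 (0.89) and Gp9 (0.904) were below it. After the exon length correction Pf4 was at 1.03 and Gp9 at 1.04, and 0 of the 8 were below 1. In CD41low/CD9low HSCs the summed level of the 8 markers was also higher in KO, 402 against 229 CPM. There 5 of them were above 1.5 and 2 below 1, and 1 was at 0 in the WT library. The part of the reads outside genes, or of the cells behind these markers, in the levels of the target genes was not tested.

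Most of the genes had counting intervals that left out 1, as did most genes at these depths. In HSCs the whole interval lay above 1 for 2 of the 10 genes and below 1 for 6, beside 35.7% and 33.6% of all genes. In CD41low/CD9low HSCs it lay above 1 for 4 and below 1 for 2 of the 10, beside 30.9% and 30.6%. The ratio stood on opposite sides of 1 in the populations for 4 of the 10 genes, Keap1, Nqo1, Srxn1 and Cat, beside 43.3% of the 14144 genes that passed in both. An interval of this kind compares pairs of libraries and not the genotypes.

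A change common to both populations was sought with edgeR's quasi-likelihood test over the 4 libraries, with population as a covariate and 1 residual degree of freedom. None of the 10 genes was called at an adjusted p under 0.05, beside 0.843% of 14940 genes. DESeq2 with this design called 0 of the 10 as well, beside 0.663% of all genes. In edgeR 1 of the 10 had an unadjusted p under 0.05, beside 10% of all genes. That gene was Nfe2l2, with a log2 difference KO minus WT of 0.40 ± 0.17 (SE), a 95% interval of 0.04 to 0.75 and an adjusted p of 0.426. Hmox1 had the most negative estimate at -0.72 ± 0.62, with an interval of -2.03 to 0.58 and an adjusted p of 0.815. For the other 8 genes the log2 estimates ran from -0.31 for Srxn1 to 0.15 for Txnrd1, with adjusted p-values from 0.682 for Gclc to 0.997 for Keap1. The intervals still allow changes in either direction for 9 of the 10 genes: that of Nqo1 runs from -0.95 to 0.58, and that of Keap1 from -0.32 to 0.32. The libraries of the 2 populations may come from the same pools of mice. The 1 residual degree of freedom is the disagreement of the populations about the KO/WT ratio, and not a spread between replicates. edgeR draws the variance of each gene toward that of all genes, here with a median of 15.69 prior degrees of freedom. The SEs, intervals and p-values therefore rest mostly on variance shared across genes. For Nfe2l2 the log2 KO/WT ratios were 0.67 in HSCs and 0.12 in CD41low/CD9low HSCs.

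Between the populations 2 of the 10 genes differed in this fit, both lower in CD41low/CD9low HSCs, beside 20.8% of all genes called. Gclm had a log2 difference, CD41low/CD9low HSCs minus HSCs, of -0.74 ± 0.16 (SE), with an interval of -1.08 to -0.41 and an adjusted p of 0.00315 in edgeR. The CPM ratio of CD41low/CD9low HSCs to HSCs for Gclm was 0.57 in WT and 0.681 in KO. Nfe2l2 had a log2 difference of -0.59 ± 0.17, with an interval of -0.95 to -0.24 and an adjusted p of 0.0185 in edgeR, and its CPM ratio was 0.833 in WT and 0.576 in KO. The difference in Nfe2l2 was thus larger between the KO libraries than between the WT libraries. Srxn1 was estimated higher in CD41low/CD9low HSCs, by a log2 difference of 0.62 ± 0.23 and CPM ratios of 1.25 in WT and 2.06 in KO, but its adjusted p was 0.0591. The other 7 genes had adjusted p-values from 0.211 for Keap1 to 0.716 for Gclc. The tables of the populations list different sets of genes and differ in depth, which cannot be told apart from the population.

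**Figure D3:**
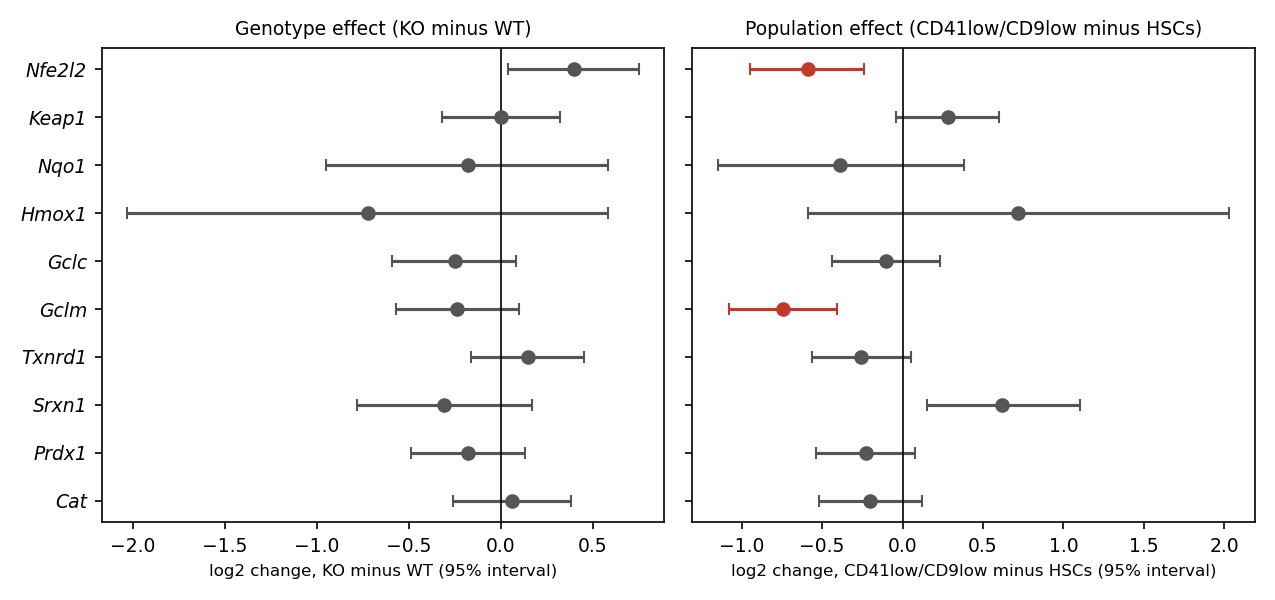
Log2 differences of the 10 genes in the fit of 4 libraries, KO minus WT in one panel and CD41low/CD9low HSCs minus HSCs in the other, with 95% intervals and with adjusted p under 0.05 in red. No gene is red for genotype, and Nfe2l2 and Gclm are red for population.

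The pattern of Nfe2l2 over the 4 libraries was set beside that of other genes. Measured as the distance between centred log2 CPM values, the nearest of 10165 genes with at least 100 counts in every library were Rnpc3 at 0.033, Ttll7 at 0.051 and Zfp871 at 0.07, whose KO/WT ratios were 1.58, 1.54 and 1.57 in HSCs and 1.09, 1.08 and 1.03 in CD41low/CD9low HSCs. Within a distance of 0.2 there were 96 genes, or 0.944%. Of the other 9 antioxidant genes, Nqo1 and Hmox1 had too few counts to be included. None of the rest was within 0.2, which says little where 0.944% of all genes were. The nearest of them, Txnrd1, was at 0.547, and Srxn1 was at 1.533. These distances rest on 4 libraries and are a description.

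A wider list of 68 genes around the pathway was described in 9 groups. In HSCs 66 of them passed the count filter, 3 were above 1.5 and 7 below 0.6, beside 14.2% and 10.3% of all genes. Of these 66 genes 45 were below 1, beside 49.8% of all genes. Their median ratio was 0.875 (0.892 after the exon length correction). In CD41low/CD9low HSCs 65 passed, 3 were above 1.5 and 3 below 0.6, beside 13.4% and 12.1% of all genes. Of these 65 genes 34 were below 1, beside 49.4% of all genes, and their median was 0.99. After the exon length correction 3 were above 1.5 and 5 below 0.6 in HSCs, of 65 genes with a corrected ratio. Over all genes the correction brought the number past either cutoff in HSCs from 3894 to 3467. In the fit of 4 libraries 1 of 66 genes rose with genotype and 0 fell, beside 0.843% of all genes called in either direction. An unadjusted p under 0.05 was found in edgeR for 13 of the 66, beside 10% of all genes.

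The 1 gene called was Gstm1, a glutathione S-transferase that conjugates glutathione to electrophiles. It had 1728 and 2663 counts in WT and KO HSCs, against 699 and 1604 counts in the WT and KO CD41low/CD9low libraries, or 34.0, 63.9, 54.9 and 83.9 CPM. The KO library was higher in both populations, with ratios of 1.9 (1.79 to 2.02) and 1.53 (1.4 to 1.67), the first of which was 2.18 after the exon length correction. The log2 difference KO minus WT was 0.77 ± 0.17 (SE), with an adjusted p of 0.0353 in edgeR, and the adjusted p was 0.0532 with median-of-ratios normalization, 0.0889 with another count filter, 0.000992 with no filter and 0.0725 in DESeq2. Gstm1 has a near-identical pseudogene, Gstm2-ps1, so its counts are uncertain where reads match both.

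Regulators and partners of Nrf2 passed the filter for 11 of 12 genes and had median ratios of 0.92 in HSCs and 1.08 in CD41low/CD9low HSCs. Maff, a small Maf protein that pairs with Nrf2, was lowest in both, with 1137 and 205 counts in WT and KO HSCs (ratio 0.223, 0.191 to 0.259) and 182 and 167 counts in the CD41low/CD9low pair (ratio 0.611, 0.492 to 0.758). Its log2 genotype difference was -1.46 with an adjusted p of 0.0762 in edgeR. Highest were Bach2, a repressor that competes for the same elements, at 1.28 in HSCs, and Cul3, the ligase scaffold, at 1.35 in CD41low/CD9low HSCs. After the exon length correction Bach2 was at 1.13 in HSCs, below Mafg and Cul3, both at 1.17.

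Genes that make and use glutathione had medians of 0.822 in HSCs, over 14 genes, and 1.01 in CD41low/CD9low HSCs, over 13. Slc7a11, the cystine importer that feeds glutathione synthesis, was lowest in HSCs at 0.353 (0.252 to 0.486) with 175 and 50 counts in WT and KO, whereas the CD41low/CD9low pair had 17 and 32. Gsta4, a transferase for lipid aldehydes, was at 0.592 (0.493 to 0.708) in HSCs, compared with 1.87 (1.52 to 2.3) in CD41low/CD9low HSCs, past opposite cutoffs. After the exon length correction its ratio in HSCs was 0.665, no longer below 0.6. Glutathione reductase, Gsr, was lowest in CD41low/CD9low HSCs at 0.682.

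In the thioredoxin and peroxiredoxin group none of 10 genes passed a cutoff in either population before the exon length correction, which moved Txnip in HSCs from 1.48 to 1.57. The extremes were Txn2, the mitochondrial thioredoxin, at 0.776 and Txnip, an inhibitor of thioredoxin, in HSCs, and Prdx5 at 0.824 and Txnip at 1.25 in CD41low/CD9low HSCs. Txnip was the gene of this group with the highest ratio in both. The superoxide dismutase group was below 1 in HSCs for 3 of 3 genes, from Sod1 at 0.656 to its copper chaperone Ccs at 0.852, and ran from Ccs at 0.944 to Sod2 at 1.15 in CD41low/CD9low HSCs.

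Of the genes that supply NADPH, Me1, a cytosolic malic enzyme, was below 0.6 in both populations, with 95 and 44 counts in WT and KO HSCs, against 45 and 25 counts in the WT and KO CD41low/CD9low libraries. Its ratios were 0.572 (0.391 to 0.826) and 0.37 (0.217 to 0.616). The annotation holds 3 near-identical copies of Me1, which makes these low counts uncertain. Pgd was highest in HSCs at 1.26 and G6pdx in CD41low/CD9low HSCs at 1.29, the genes of the oxidative pentose phosphate pathway. Iron and heme genes ran from Fth1 at 0.769 to Ftl1 at 1.01 in HSCs and from Blvrb at 0.611 to Ftl1 at 1.09 in CD41low/CD9low HSCs.

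Among other Nrf2 targets, Osgin1 was lowest in both populations, at 0.323 in HSCs and 0.605 in CD41low/CD9low HSCs, with a log2 genotype difference of -1.17 and an adjusted p of 0.236 in edgeR. Aox1, an aldehyde oxidase, had 0 counts in both WT libraries, 38 in KO HSCs and 10 in KO CD41low/CD9low HSCs. Against a floor of 3 counts in the WT library it was at least 15.6-fold and 2.22-fold higher in KO. FoxO factors and Atm ran from Foxo4 at 0.962 to Foxo1 at 1.49 in HSCs and from Foxo3 at 0.975 to Foxo4 at 1.44 in CD41low/CD9low HSCs. After the exon length correction Foxo3 was lowest in HSCs, at 0.887, and Foxo4 was at 0.987.

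Genes of the phagocyte NADPH oxidase, which makes superoxide, had medians of 0.733 in HSCs and 0.696 in CD41low/CD9low HSCs, over 7 genes in each. Ncf1 had 906 and 3010 counts in WT and KO HSCs, against 427 and 246 counts in the WT and KO CD41low/CD9low libraries, which gave ratios of 4.1 (3.81 to 4.43) and 0.384 (0.327 to 0.45) on opposite sides of the cutoffs. Cybb, the catalytic subunit, had a ratio of 0.201 (0.154 to 0.259) in CD41low/CD9low HSCs, the lowest of the group there, and Ncf4 was lowest in HSCs at 0.47. The macrophage and granulocyte markers described beside Hmox1 were lower in this KO library too, and their part was not tested.

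**Figure D4:**
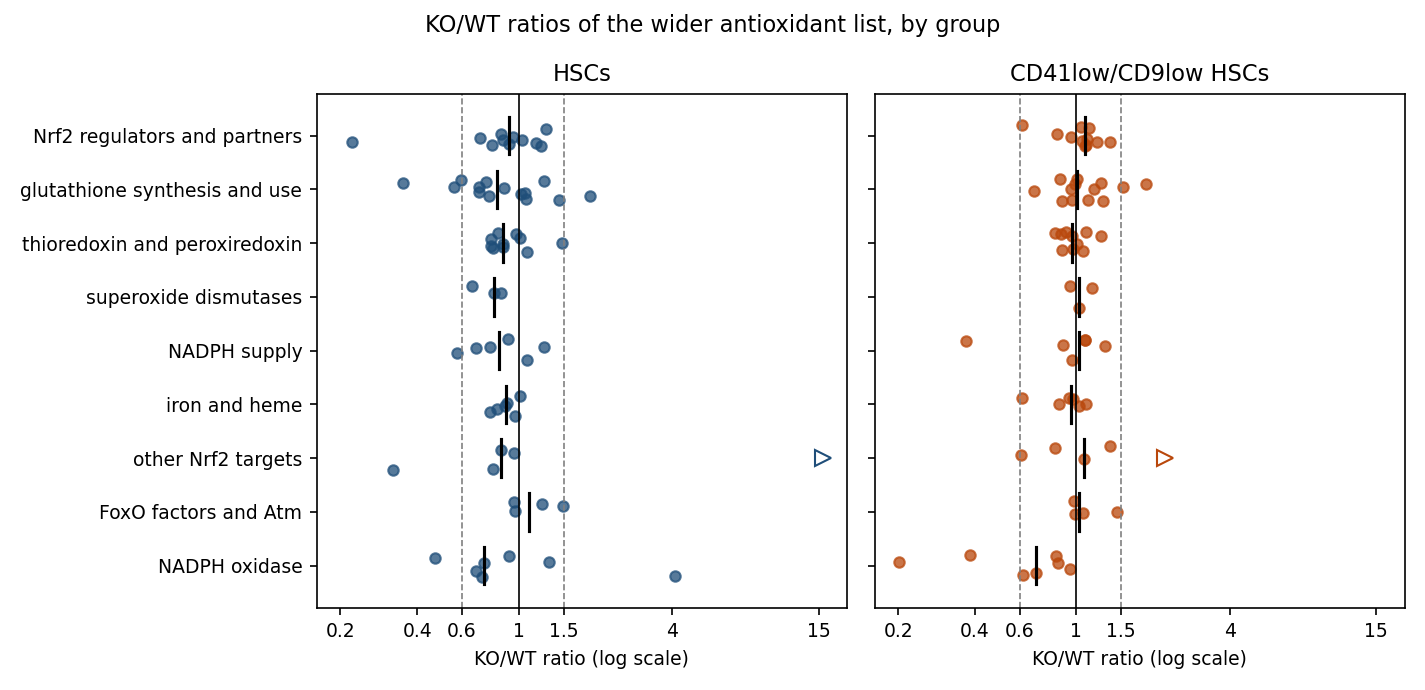
KO/WT ratio of each gene of the 9 groups of the wider list in HSCs, and next to it in CD41low/CD9low HSCs on a log axis, 1 point per gene, with a black bar at the median of each group. An open triangle marks Aox1, which had 0 counts in WT and is drawn at its ratio against a floor of 3 counts. Ncf1 at 4.1 in HSCs and Cybb at 0.201 in CD41low/CD9low HSCs lie far from their group medians of 0.733 and 0.696.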

How the data were processed

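RNA of 4 sorted mouse samples was sequenced with TruSeq Stranded mRNA libraries. The authors aligned reads to mm10 with TopHat 2.0.10, counted them with HTSeq and deposited raw counts per Ensembl gene. The HTSeq version, strand setting and annotation release are not given in the sources used here. The 2 populations shared 37140 genes. Lines for unassigned reads were left out (no-feature reads were 60.1 to 105.3 per 100 gene counts). Symbols, positions and exon lengths came from GENCODE M21 (GRCm38), and promoters from RefSeq (GRCm38.p6). The CPM and TPM were computed from the counts.

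Ratios used median-of-ratios size factors of each pair, with at least 10 counts in 1 library. With 1 library per group no test within a population was made. The fit over 4 libraries used edgeR 4.0.16 (TMM, at least 10 counts in 2 libraries, Benjamini-Hochberg adjustment) in R 4.3.3, tested on simulated data. DESeq2 1.42.0 was an alternative, with other scalings, filters and an exon length correction by the running median of 500 genes. The 10 genes and all lists were chosen with earlier results of these data known. Genes of the wider list were named if called for genotype, past one cutoff in both populations, or highest or lowest in their group. The 3 genes nearest to Nfe2l2 were also named. Some genes that this rule covers are not reported here. At these depths 3 counts equal 0.0591, 0.072, 0.2356 and 0.1569 CPM in WT and KO HSCs and WT and KO CD41low/CD9low HSCs.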

Additional observations from a re-analysis of the deposited data

Results flagged for a closer look

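The KO/WT ratio stood on opposite sides of 1 in HSCs and in CD41low/CD9low HSCs for 14 of the 38 genes that the naming rule covered. With 1 pair of libraries in each population the difference was not tested, and 43.3% of all genes did so. Of the 10 antioxidant genes, the log2 KO/WT ratio in CD41low/CD9low HSCs exceeded that in HSCs by 1.07 for Nqo1, 0.70 for Srxn1, 0.21 for Cat and 0.20 for Keap1, although the ratio of Cat in HSCs was above 1 (1.05) after the exon length correction. Of the wider list it was higher by 1.83 for Slc7a11, 1.66 for Gsta4, 0.64 for Sod1, 0.58 for Foxo4, 0.52 for Sod2 and 0.45 for Txn2. It was lower for Bach2 (difference -0.42), Gsr (-0.58), Cybb (-2.72) and Ncf1 (-3.42).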

How the results depend on the processing

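The direction of the KO/WT ratio and its side of the cutoffs held for Nfe2l2 in HSCs (1.57 to 1.63) and Hmox1 in CD41low/CD9low HSCs (0.465 to 0.474) under all alternatives run. With a lower cutoff of 1/1.5, 3 of the 10 genes passed in HSCs in place of 1, and over all genes 4281 in place of 3894. The exon length correction moved 7 ratios, all in HSCs, to 0.711 for Nqo1, 0.738 for Gclm, 0.974 for Txnrd1, 0.7 for Srxn1, 0.87 for Prdx1, 1.05 for Cat and 2.18 for Gstm1, and the other 169 values of the 10 genes and Gstm1 moved by less than their counting interval. Over all genes, 3894 passed the cutoffs in HSCs, 2225 with at least 50 counts and 7010 with no filter, and in CD41low/CD9low HSCs 3787 passed and 1683 did with at least 50 counts. The genotype fit called 126 genes, 64 with edgeR's filterByExpr, 420 with no filter, 96 with median-of-ratios normalization and 99 with DESeq2, and in each of these 0 of the 10 genes. With no filter the genotype estimate of Keap1 turned to 0.002, and Srxn1 was called between populations at a log2 difference of 0.595, which made 3 genes in place of 2. The cause of these changes was not tested. The fit over 4 libraries compares KO with WT within each population, so population is its block, and no further block could be fitted with 1 library per group. Leaving out a library leaves no residual degree of freedom. Depth limits Hmox1 and Nqo1 most, which had under 100 counts in WT CD41low/CD9low HSCs.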
